A study of Rattus norvegicus with 8 samples.

Results

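CD antigens are cell surface molecules that were numbered in the order in which antibodies to them were grouped. Many mark one kind of leukocyte, while others, such as most tetraspanins, occur on nearly every cell. All genes of the deposited rat table whose symbol was Cd followed by a number were taken, with Cd2ap, Cd2bp2 and Cd3eap, which are named after a CD antigen without being one, and Cd14, Cd44, Cd74 and Cd163 left out. This gave 66 of 23609 probes, and 54 of 17928 genes or unnamed probes after probes of a symbol were averaged. By textbook lineage, 15 were T and NK cell antigens, 2 B cell antigens, 16 antigens of myeloid and antigen-presenting cells, 7 tetraspanins and 3 antigens of vessel walls. A further 3 were complement regulators, 2 were ligands of inhibitory receptors on myeloid cells and 6 fitted none of these groups. A gene in a lineage group need not be expressed by that lineage alone: rat macrophages carry Cd4, for instance.

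The tissue was brain cortex of Sprague Dawley rats. The injured group had a transient occlusion of the middle cerebral artery (tMCAO), which blocks and then restores blood flow, and the control group had a sham operation. Cortex was dissected from a 4 mm section of the operated side at 24 h, with 4 animals per group. On each of the 8 Agilent arrays, which read 2 dyes, the RNA of a single animal was labelled with Cy5 and pooled sham RNA with Cy3. A gene at the level of that pool thus has a log2 ratio of 0. The dyes were not swapped. In bulk tissue, more cells of a type and more RNA per cell cannot be told apart.

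In healthy cortex the main resident leukocyte is the microglial cell. After a stroke, microglia become reactive and neutrophils, monocytes and, in smaller numbers, lymphocytes enter from the blood. Several CD antigens are also carried by neurons, glia or endothelium. Cd200 and Cd47 on such cells bind inhibitory receptors of myeloid cells, and Cd55, Cd59 and, in other species, Cd46 protect host cells from complement.

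Of the 54 CD antigens, 17 rose and 6 fell at an adjusted p under 0.05 (limma, Benjamini-Hochberg adjustment over all features), and 31 were not called. That is 31.5% higher and 11.1% lower, against a background of 15.0% of all features called higher and 16.0% called lower. At least 2-fold rises were called for 8 members (14.8%, background 3.86%): Cd53, Cd48, Cd300a, Cd27, Cd93, Cd1d1, Cd151 and Cd55. No member fell 2-fold, where 2.73% of all features did. The median log2 difference, tMCAO minus sham, was 0.27 over the 54 genes and -0.05 over all features. In 16 members every tMCAO animal lay above every sham animal (background 13.8%), and in 6 every tMCAO animal lay below (background 16.2%).

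**Figure D1:**
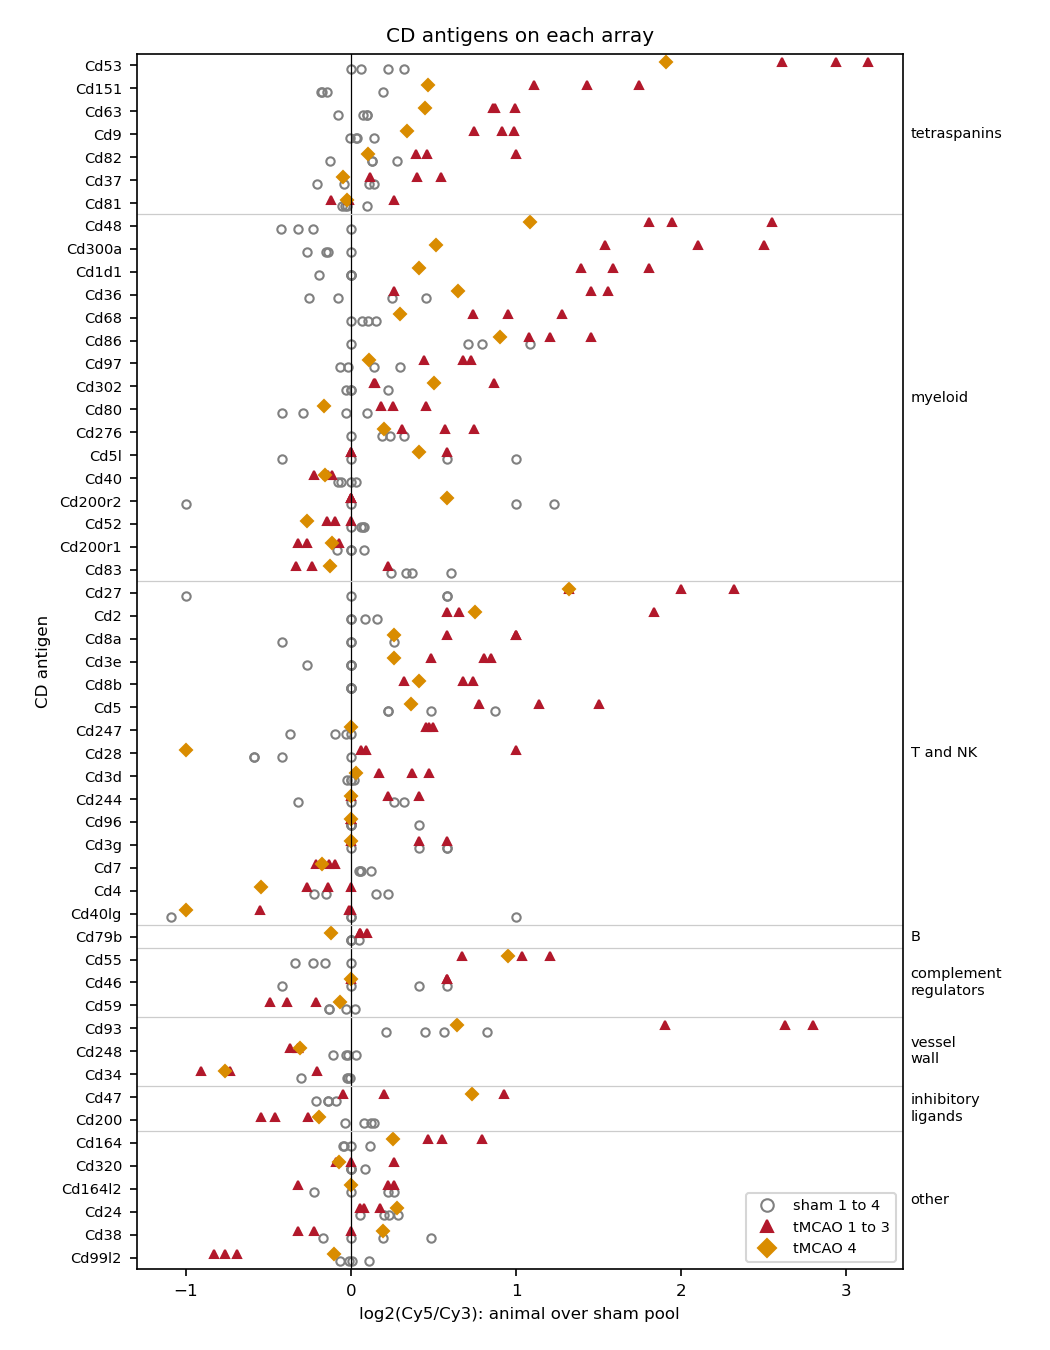
The log2 ratio of each animal to the sham pool (horizontal axis) is plotted for 53 CD antigens, grouped by lineage and ordered within it by the difference between groups; open circles are the 4 sham arrays, triangles tMCAO replicates 1 to 3 and diamonds tMCAO replicate 4. Cd53, Cd48 and Cd300a have the largest differences between the groups, and their diamonds lie between the triangles and the circles.

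The promoters of the 3 members with the largest rises are shown, chosen by the size of the rise alone. Whether these genes are regulated together was not tested. Each sequence is the 250 bases before the annotated start site in the GRCr8 assembly, read 5′ to 3′ on the strand of the gene, and capitals mark GAGGAA or its reverse complement TTCCTC, the core of sites for PU.1, an ETS factor of myeloid and B cells.
Cd53, chr2:197087897-197088146, minus strand: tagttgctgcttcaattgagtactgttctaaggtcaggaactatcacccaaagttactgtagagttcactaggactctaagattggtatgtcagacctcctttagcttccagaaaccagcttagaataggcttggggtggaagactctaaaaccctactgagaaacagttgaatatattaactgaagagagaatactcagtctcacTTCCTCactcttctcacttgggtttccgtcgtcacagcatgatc
Cd48, chr13:86717744-86717993, plus strand: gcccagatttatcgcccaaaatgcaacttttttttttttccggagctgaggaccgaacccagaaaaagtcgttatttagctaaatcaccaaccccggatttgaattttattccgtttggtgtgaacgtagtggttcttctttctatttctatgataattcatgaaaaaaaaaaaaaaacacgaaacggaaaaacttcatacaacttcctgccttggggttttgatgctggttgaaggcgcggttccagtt
Cd300a, chr10:100428576-100428825, plus strand: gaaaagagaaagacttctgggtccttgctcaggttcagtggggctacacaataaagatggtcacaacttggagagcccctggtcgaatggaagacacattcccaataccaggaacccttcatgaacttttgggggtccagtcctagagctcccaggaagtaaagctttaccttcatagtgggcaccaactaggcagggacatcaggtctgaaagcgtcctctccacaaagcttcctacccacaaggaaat
The Cd53 window held 1 match, whose first base lies at -44 from the start site, and the other 2 windows held none. Of the 39 CD antigens with an entry, 15 had a match in their window (38.5%), namely 7 of the 15 that rose (46.7%) and 8 of the 24 that did not (33.3%), against 23.3% of all 33469 promoters in the table. The interferon response motif, GAAA, 2 bases of any kind and GAAA again on either strand, had 2 matches in the Cd48 window. It was present in 1 of the 39 windows (2.56%) and in 3.41% of all promoters. A GC box, GGGCGG or CCGCCC, was present in 16 of the 39 windows (41%) and in 30.5% of all promoters. These are matches of letters, and binding was not measured.

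Tetraspanins, which span the membrane 4 times and gather integrins and receptors into patches, held the largest rise of all members. Of the 7, 4 rose (57.1%, background 15.0%) and none fell (background 16.0%), and their median log2 difference was 0.70. Cd53, the tetraspanin of leukocytes, had Cy5 signals of 0.28, 0.24, 0.26 and 0.3 in sham replicates 1 to 4 and of 2.98, 2.22, 1.77 and 1.05 in tMCAO replicates 1 to 4. Its log2 ratios to the pool were 0.22, 0.06, 0.00 and 0.32 in the sham animals and 3.13, 2.94, 2.61 and 1.91 in the tMCAO animals. The groups were far apart, and the lowest tMCAO animal was replicate 4. The rise was 5.64-fold (log2 difference 2.49 ± 0.24, SE, n = 4 per group, limma adjusted p = 0.00171). Quantile normalization, which forces the same spread on every array, lowered this difference to 1.56.

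Cd151, a tetraspanin that binds laminin-binding integrins, had log2 ratios of -0.14, -0.18, -0.17 and 0.20 in sham replicates 1 to 4 and of 1.74, 1.43, 1.11 and 0.47 in tMCAO replicates 1 to 4. All 4 tMCAO animals lay above the sham animals, with replicate 4 nearest to them. The rise was 2.40-fold (log2 difference 1.26 ± 0.25, adjusted p = 0.00857).

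Cd63 of late endosomes and secreted vesicles and Cd9 of glia, platelets and many other cells were the brightest members. The Cy5 signal of Cd63 was 11.46, 13.16, 12.26 and 12.97 on sham arrays 1 to 4 and 22.42, 28.31, 25.26 and 19.06 on tMCAO arrays 1 to 4. That of Cd9 was 15.34, 17.48, 15.09 and 16.33 on the sham arrays and 22.42, 28.33, 25.26 and 19.04 on the tMCAO arrays. Both genes therefore read nearly the same on each tMCAO array, although Cd9 was brighter on every sham array. On tMCAO arrays 1 to 3 they reached the ceiling of the channel, the level at which at least 15 bright probes piled up within 0.3% of each other. Cd63 rose 1.67-fold (log2 difference 0.74 ± 0.12, adjusted p = 0.00532) and Cd9 rose 1.62-fold (log2 difference 0.70 ± 0.14, adjusted p = 0.00892), with no overlap between the groups. The ceiling limits the size of both estimates.

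**Figure D2:**
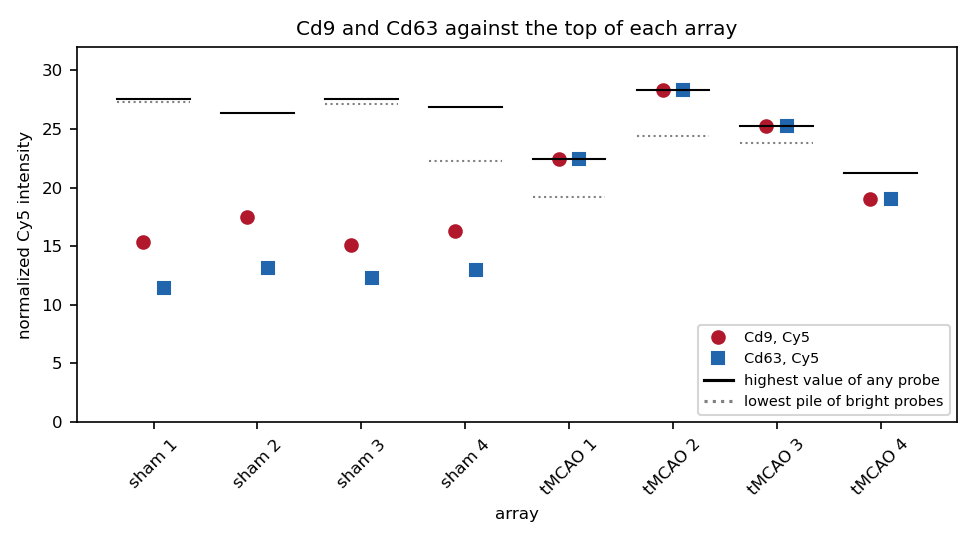
The normalized Cy5 intensity of Cd9 (circles) and Cd63 (squares) is plotted for each of the 8 arrays, with the highest value of any probe (solid line) and the lowest pile of bright probes (dotted line, where an array has one). On tMCAO arrays 1 to 3 both genes sit at the top of the array, at 22.42, 28.3 and 25.26.

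Not all tetraspanins moved. Cd81, which occurs on most cells, had log2 ratios of -0.05, -0.02, -0.04 and 0.10 in sham and 0.26, -0.01, -0.12 and -0.03 in tMCAO replicates 1 to 4, and the groups overlapped (log2 difference 0.03 ± 0.10, adjusted p = 0.846). Cd82, known as a suppressor of metastasis, read -0.13, 0.13, 0.13 and 0.28 in sham and 0.39, 1.00, 0.46 and 0.11 in tMCAO replicates 1 to 4 (log2 difference 0.39 ± 0.18, adjusted p = 0.136). Its replicate 4 lay within the sham range and its replicates 1 to 3 above it. Cd82 was called from the Cy5 signal alone, with array weights and without tMCAO replicate 4. Cd37, a tetraspanin of B cells, was not called (log2 difference 0.25 ± 0.15, adjusted p = 0.211), and its probes disagreed: the brighter lay at -0.19 and the dimmer at 0.70. Of 14 measured tetraspanins without a CD symbol, 5 rose and 2 fell (35.7% and 14.3%), with Tspan8 2.66-fold, Tspan18 2.10-fold and Tspan4 1.98-fold higher. The 2 that fell, named after their values were seen, were Tspan33 (log2 difference -0.83 ± 0.14) and Tspan13 (log2 difference -0.36 ± 0.11).

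Of the 16 antigens of myeloid and antigen-presenting cells, 4 rose, 1 fell and 11 were not called, with a median log2 difference of 0.35. Cd48 is a lipid-anchored ligand of the SLAM family on leukocytes and binds Cd2 and Cd244. Its Cy5 signal was 0.76, 0.81, 0.65 and 0.65 in sham replicates 1 to 4 and 2.87, 2.46, 1.75 and 1.55 in tMCAO replicates 1 to 4, with log2 ratios of 0.00, -0.23, -0.42 and -0.32 against 2.55, 1.94, 1.81 and 1.09. Every tMCAO animal lay well above every sham animal. The rise was 4.25-fold (log2 difference 2.09 ± 0.27, adjusted p = 0.00309). The pool channel of the Cd48 probe was lower on the tMCAO arrays (log2 difference -0.54). The Cy5 signal alone, which was quantile normalized here and in what follows, gave a Cd48 difference of 1.48.

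Cd300a, an inhibitory receptor for the lipids that dying cells expose, had Cy5 signals of 0.05, 0.07, 0.1 and 0.09 in sham and 0.3, 0.34, 0.29 and 0.1 in tMCAO replicates 1 to 4. The corresponding log2 ratios were -0.26, 0.00, -0.14 and -0.15 against 2.10, 2.50, 1.54 and 0.51. The ratios did not overlap, but the Cy5 signal of tMCAO replicate 4 equalled that of sham replicate 3. The rise was 3.49-fold (log2 difference 1.80 ± 0.37, adjusted p = 0.00971). Values were deposited with 2 decimals, and with every intensity moved by up to 0.005, all in the least favourable or all in the most favourable way, the Cd300a rise was 2.79- to 4.38-fold. This is called the range within rounding in what follows.

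Cd1d1, which presents lipid antigens to NKT cells, had log2 ratios of 0.00, 0.00, -0.19 and 0.00 in sham and 1.81, 1.58, 1.39 and 0.42 in tMCAO replicates 1 to 4. The groups did not overlap, and replicate 4 was again the lowest tMCAO animal. It rose 2.55-fold (log2 difference 1.35 ± 0.27, adjusted p = 0.00876, 2.03- to 3.21-fold within rounding). Cd68, a lysosomal glycoprotein of macrophages and reactive microglia, read 0.00, 0.07, 0.11 and 0.15 in sham and 0.95, 1.28, 0.74 and 0.30 in tMCAO replicates 1 to 4. Its rise was 1.67-fold (log2 difference 0.74 ± 0.19, adjusted p = 0.0194), without overlap of the ratios. The Cd68 call was lost without sham replicate 1, 2 or 3, without tMCAO replicate 1, under quantile normalization and from the Cy5 signal alone. Cy5 of Cd68 was 0.14, 0.22, 0.14 and 0.1 in sham and 0.31, 0.17, 0.25 and 0.16 in tMCAO replicates 1 to 4, which overlap.

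**Figure D3:**
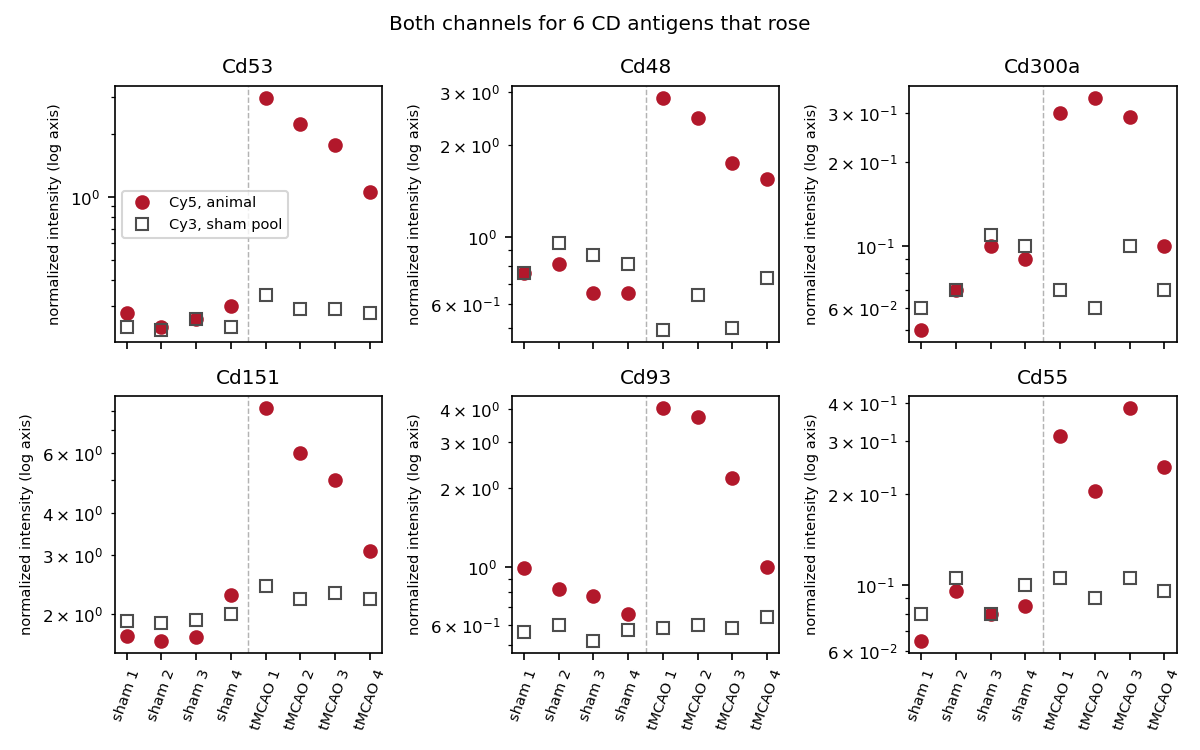
Normalized intensity (log axis) of the animal's RNA (Cy5, circles) and of the sham pool (Cy3, squares) is plotted by array for 6 CD antigens that rose; values are means over the probes of a gene. The Cy5 signal of Cd53 is 1.05 to 2.98 on the tMCAO arrays and 0.24 to 0.3 on the sham arrays, while its pool signal is 0.23 to 0.34 on all 8.

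Of the costimulatory and maturation antigens of antigen-presenting cells, Cd83 was called and Cd40, Cd80 and Cd86 were not. Cd83, a marker of mature dendritic cells, fell 1.42-fold (log2 difference -0.51 ± 0.14, adjusted p = 0.0246). Its log2 ratios were 0.37, 0.61, 0.34 and 0.25 in sham and -0.33, 0.23, -0.23 and -0.13 in tMCAO replicates 1 to 4, so the sham animals lay above the pool. With the pool alone as the control the Cd83 difference was -0.12 and the call was lost, as it was from the Cy5 signal alone, without sham replicate 1, 2 or 3 and without tMCAO replicate 1 or 3. Cd40, a receptor of the TNF family, read -0.06, -0.08, 0.00 and 0.03 in sham and -0.14, -0.11, -0.22 and -0.15 in tMCAO replicates 1 to 4. The groups did not overlap, yet the difference was small and not called (log2 difference -0.13 ± 0.07, adjusted p = 0.18). From the Cy5 signal alone Cd40 was called lower, and over its 21 alternatives its log2 difference was -0.74 to -0.05. Its Cy5 signal was 1.92 to 2.14 in sham and 1.17 to 1.33 in tMCAO cortex, and its pool signal was lower too, at 2 to 2.14 on the sham and 1.29 to 1.53 on the tMCAO arrays. Cd80, a ligand of Cd28, read 0.10, -0.42, -0.29 and -0.03 in sham and 0.25, 0.45, 0.18 and -0.16 in tMCAO replicates 1 to 4, with overlapping groups (log2 difference 0.34 ± 0.16, adjusted p = 0.132). The other ligand of Cd28, Cd86, lay at 0.51 ± 0.23 (adjusted p = 0.113). Its probes disagreed: tested on its own, the brighter rose 1.88-fold (adjusted p = 0.0275, no overlap of the groups, mean Cy5 0.0537), and the dimmer lay at 0.12 (adjusted p = 0.809, mean Cy5 0.04). Cd86 was called with the brightest probe, from the Cy5 signal alone, with the pool alone as the control, with array weights and with 0.05 added to both channels.

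The other 8 myeloid members, all not called, had log2 differences of -0.19 to 0.89. They were the scavenger receptor Cd36, the adhesion receptor Cd97 (Adgre5 in RefSeq), the lectin Cd302, the B7 family member Cd276, the short lymphocyte and monocyte antigen Cd52, the secreted macrophage protein Cd5l, and the inhibitory receptor Cd200r1 with its relative Cd200r2. The highest was Cd36 at 0.89 ± 0.30 (adjusted p = 0.0547), whose 4 probes had mean Cy5 signals of 0.021 to 0.0463. Tested on their own, 2 of these probes rose, 2.74-fold (adjusted p = 0.0293) and 2.38-fold (adjusted p = 0.016), and the other 2 lay at 0.54 and 0.30 (adjusted p = 0.426 and 0.23). Cd36 was called without tMCAO replicate 2 or 4, from the Cy5 signal alone, with the brightest probe, with array weights and with 0.05 added to both channels. Each of the 3 Cd97 probes was also tested on its own with limma. The brightest lay at 0.83 (adjusted p = 0.0144), the middle one at 0.68 (adjusted p = 0.0323) and the dimmest at -0.31 (adjusted p = 0.406). Cd97 was called without tMCAO replicate 4, from the Cy5 signal alone, with the brightest probe, with array weights and with 0.05 added to both channels. In the list of myeloid genes without a CD symbol, 9 of 14 rose and none fell (64.3% higher), with the Fc receptor Fcgr3a 6.60-fold and the integrin Itgb2 4.66-fold higher and the Fc receptor Fcgr2b at a log2 difference of 3.81. The summed Cy5 signal of that list was 25.2 to 27.5 in sham and 33.4 to 48.4 in tMCAO cortex.

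Of the 15 T and NK cell antigens, 6 rose, 1 fell and 8 were not called, and the median log2 difference was 0.44. The shares were 40.0% higher and 6.67% lower, against 15.0% and 16.0% of all features. The signals of this group are mostly dim: 12 of the 15 had a mean Cy5 signal of about 0.1 or less, where a step of 0.01 is a large part of the value. Cd2, an adhesion receptor of T and NK cells, was brighter, with Cy5 of 0.19, 0.16, 0.19 and 0.17 in sham and 0.57, 0.22, 0.24 and 0.27 in tMCAO replicates 1 to 4. Its log2 ratios were 0.00, 0.00, 0.16 and 0.09 against 1.83, 0.65, 0.58 and 0.75. All tMCAO animals lay above all sham animals, and replicate 1 stood far above the other 3. The rise was 1.86-fold (log2 difference 0.89 ± 0.26, adjusted p = 0.0307). The call was lost without any 1 of the sham arrays, with the replicate number as a block, with the pool alone as the control and from the Cy5 signal alone.

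Cd3e, the epsilon chain of the T cell receptor complex, read 0.00, 0.00, -0.26 and 0.00 in sham and 0.85, 0.81, 0.49 and 0.26 in tMCAO replicates 1 to 4. There was no overlap, and the rise was 1.59-fold (log2 difference 0.67 ± 0.14, adjusted p = 0.0113, log2 difference 0.16 to 1.19 within rounding). Cd8a, the alpha chain of the CD8 coreceptor, read 0.00, -0.42, 0.26 and 0.00 in sham and 1.00, 1.00, 0.58 and 0.26 in tMCAO replicates 1 to 4. Its tMCAO replicate 4 equalled its sham replicate 3, and the rise was 1.68-fold (log2 difference 0.75 ± 0.20, adjusted p = 0.0241). The Cd8a call was lost without sham replicate 1, 2 or 4, without tMCAO replicate 1 or 2, with the replicate block, under quantile normalization and from the Cy5 signal alone. Cd27, a costimulatory receptor of the TNF family, had Cy5 signals of 0.03, 0.03, 0.01 and 0.02 in sham and 0.05, 0.04, 0.05 and 0.05 in tMCAO replicates 1 to 4. Its pool signal was 0.02 on the sham arrays and 0.01, 0.01, 0.02 and 0.02 on tMCAO arrays 1 to 4, so each ratio rests on a few rounding steps. The rise was called at 3.25-fold (log2 difference 1.70 ± 0.38, adjusted p = 0.0131) and was 1.26- to 10.3-fold within rounding; with 0.05 added to both channels its log2 difference was 0.55, still called. Quantile normalization gave Cd27 a log2 difference of 1.04 and ended the call (adjusted p = 0.226).

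The other 2 rises were those of Cd8b, the beta chain of CD8 (log2 difference 0.54 ± 0.11, adjusted p = 0.0084), and Cd247, the zeta chain of the T cell receptor complex (log2 difference 0.48 ± 0.14, adjusted p = 0.0306). Their ranges within rounding, -0.12 to 1.22 and -0.23 to 1.22, include 0, and the sham ratios of Cd8b were 0 on all 4 arrays. The Cy5 signal of Cd247 averaged 0.0525 in sham and 0.045 in tMCAO animals, while its pool signal was lower on the tMCAO arrays by 0.72 on the log2 scale. The pool signals of Cd27, Cd8b, Cd3e, Cd2 and Cd8a were lower there too, with log2 differences of -0.5, -0.33, -0.28, -0.13 and -0.10. Among the other T and NK members the pool difference ranged from -1.70 (Cd28) to 0.25 (Cd3g). From the Cy5 signal alone the calls of Cd2, Cd3e, Cd8a, Cd8b and Cd247 were lost, and the Cd247 difference was -0.13. The Cd247 call was also lost without any 1 of the arrays other than tMCAO replicate 4. Quantile normalization, the pool alone as the control, the brightest probe and 0.05 added to both channels ended it too. Its probes disagreed: tested on their own with limma, the brighter lay at 0.15 (adjusted p = 0.401) and the dimmer at 0.81 (adjusted p = 0.0333).

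Cd3d, the delta chain of the same complex and the brightest T cell member, read -0.02, 0.00, 0.00 and 0.02 in sham and 0.48, 0.37, 0.17 and 0.03 in tMCAO replicates 1 to 4. Its difference was not called (log2 difference 0.26 ± 0.11, adjusted p = 0.0889), although the groups did not overlap. The Cy5 signal of Cd3d was 0.58 to 0.67 in sham and 0.49 to 0.57 in tMCAO cortex, and its pool signal was 0.58 to 0.66 and 0.41 to 0.48. Both channels were thus lower on the tMCAO arrays, the pool more so. Cd7, an immunoglobulin family antigen of T and NK cells, went against the majority and fell 1.17-fold (log2 difference -0.22 ± 0.07, adjusted p = 0.0374). Its log2 ratios were 0.06, 0.12, 0.05 and 0.05 in sham and -0.21, -0.13, -0.09 and -0.18 in tMCAO replicates 1 to 4, and 11 of 21 alternatives ended the call, among them each array left out in turn except tMCAO replicate 4.

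The remaining 7 T and NK members were not called, with log2 differences of -0.37 to 0.49 and mean Cy5 signals of 0.0141 to 0.101. They were Cd3g of the receptor complex, the coreceptor Cd4, the receptors Cd5, Cd28, Cd96 and Cd244 (Cd244l1 in RefSeq by its accession), and Cd40lg, the ligand of Cd40. Cd28 was called lower from the Cy5 signal alone, and higher with array weights and without tMCAO replicate 4. A second, brighter Cd4 probe had no value on tMCAO replicate 1 and was left out. Its pool signal was 0.62 to 0.77 in the sham group and 0.31 to 0.41 on tMCAO arrays 2 to 4, and its log2 ratios were -0.30 to -0.02 and -0.40 to 0.26. Of 12 measured T and NK genes without a CD symbol, 3 rose (25%): Ptprc, the CD45 phosphatase of all leukocytes, 4.36-fold, the costimulator Icos 2.57-fold and the adaptor Lat 1.94-fold. The 1 that fell, named after its value was seen, was Thy1 (log2 difference -0.82 ± 0.09), which neurons also express. The kinases Lck (0.25 ± 0.13) and Zap70 (0.31 ± 0.15) of T cell receptor signalling were not called (adjusted p = 0.172 and 0.14).

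Cd79b, of the B cell receptor, read 0.00, 0.05, 0.00 and 0.00 in sham and 0.05, 0.10, 0.05 and -0.12 in tMCAO replicates 1 to 4 (log2 difference 0.01 ± 0.08, adjusted p = 0.945). The groups overlapped, and the difference was not called. Of 10 listed B cell genes without a CD symbol only Fcrla was measured, and it was not called (log2 difference 0.51 ± 0.21, adjusted p = 0.094).

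**Figure D4:**
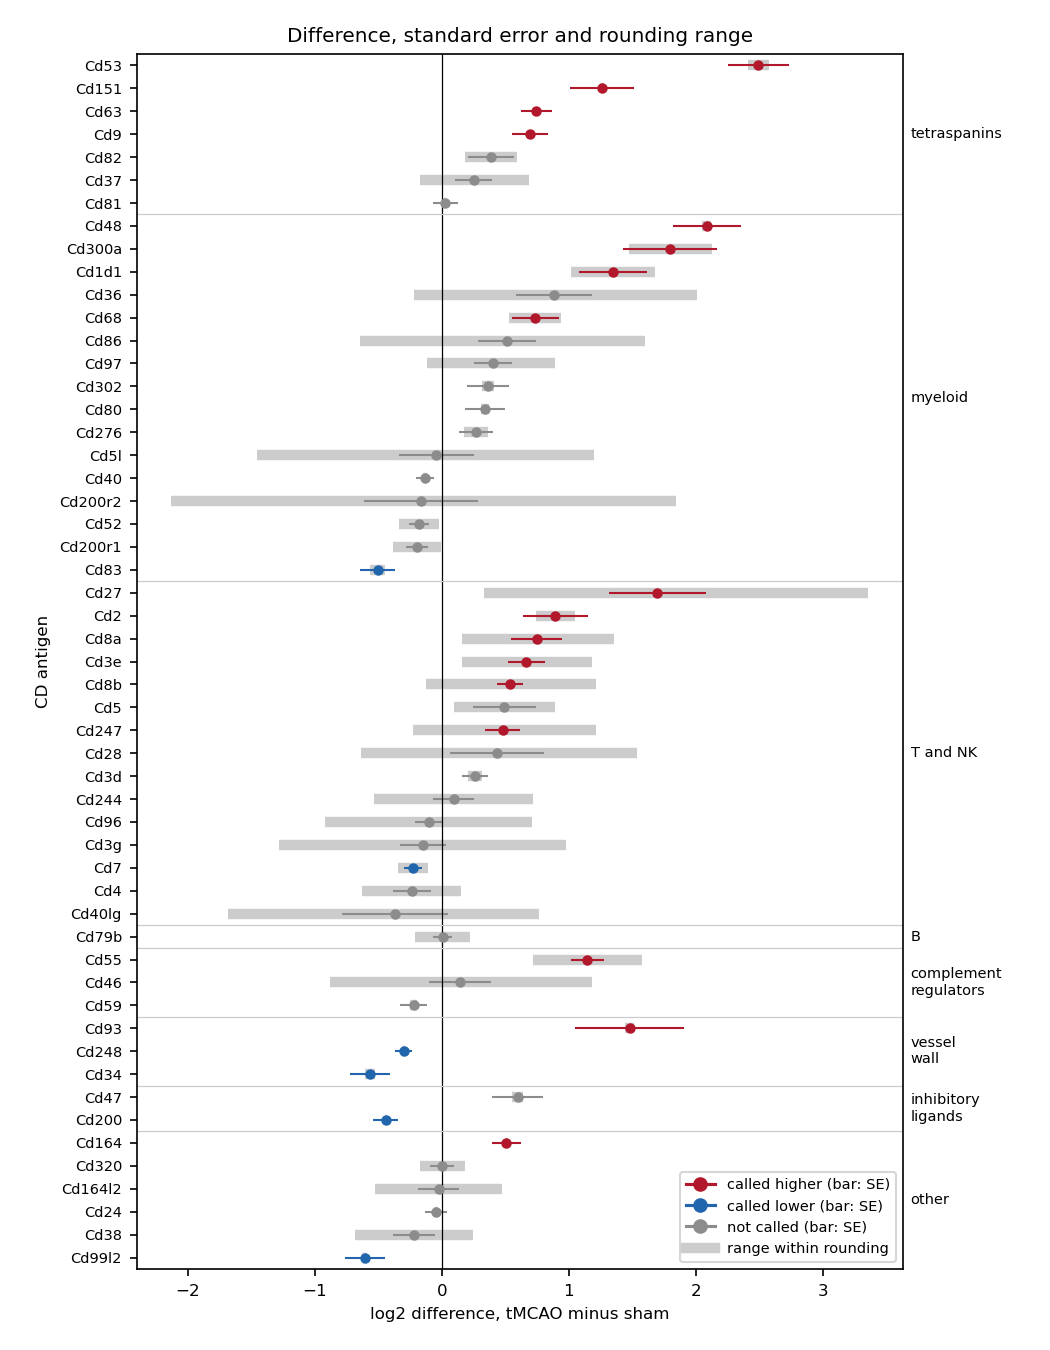
The log2 difference between tMCAO and sham cortex (points, with the standard error of the limma fit as bars) is plotted for 53 CD antigens by lineage, over the range within rounding (grey bands); red marks members called higher, blue members called lower and grey members not called. The bands of Cd8b and Cd247 cross 0, and that of Cd27 spans 0.33 to 3.36.

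Among the antigens of vessel walls, Cd93 rose while Cd34 and Cd248 fell. Cd93, a lectin-like receptor of endothelium and myeloid cells, had Cy5 signals of 0.99, 0.82, 0.77 and 0.66 in sham and 4.03, 3.71, 2.17 and 1 in tMCAO replicates 1 to 4. Its log2 ratios were 0.82, 0.45, 0.57 and 0.21 against 2.80, 2.63, 1.90 and 0.64. Replicates 1 to 3 of tMCAO stood far above the sham animals and replicate 4 lay within their range. The rise was 2.79-fold (log2 difference 1.48 ± 0.43, adjusted p = 0.0316). Without tMCAO replicate 4 the difference was 1.93. The Cd93 call was lost without any 1 of the other 7 arrays and under quantile normalization, which gave a log2 difference of 0.41.

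Cd34, a sialomucin of endothelium and blood progenitors, read -0.30, -0.02, -0.004 and -0.02 in sham and -0.73, -0.21, -0.90 and -0.76 in tMCAO replicates 1 to 4. Its tMCAO replicate 2 lay above its sham replicate 1, and the fall was 1.48-fold (log2 difference -0.56 ± 0.16, adjusted p = 0.0264). Tested on their own, the brighter probe lay at -0.34 (adjusted p = 0.245) and the dimmer at -0.79 (adjusted p = 0.013). The Cd34 call was lost without sham replicate 2, 3 or 4, without tMCAO replicate 1 or 3, under quantile normalization, from the Cy5 signal alone and with the brightest probe. Cd248, endosialin, which pericytes and fibroblasts rather than endothelium express, read -0.11, 0.03, -0.03 and -0.01 in sham and -0.37, -0.32, -0.32 and -0.31 in tMCAO replicates 1 to 4. The groups did not overlap, and the fall was 1.23-fold (log2 difference -0.30 ± 0.07, adjusted p = 0.0139). The Cy5 signal of Cd248 was 3.63 to 4.39 on the sham and 1.92 to 2.38 on the tMCAO arrays, and the pool signal 3.74 to 4.48 and 2.4 to 2.95. From the Cy5 signal alone its log2 difference was -0.95. Its call was lost under quantile normalization and with the replicate block.

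In the list of endothelial genes without a CD symbol, 9 of 12 rose and none fell (75% higher), with the growth factor receptor Kdr 3.45-fold, Icam2 3.05-fold and the sialomucin Emcn 2.92-fold higher. The summed Cy5 signal of that list was 9.87 to 10.8 in sham and 14.1 to 43.0 in tMCAO cortex. Kdr had a mean Cy5 signal of 18.2 on the tMCAO arrays, where the highest value of any probe was 21.29 to 28.37. Its values on single arrays were not compared with the ceiling. Of 5 pericyte and smooth muscle genes 3 rose and 1 fell. The fall was that of Rgs5, a pericyte marker (log2 difference -0.87 ± 0.15), while the smooth muscle gene Tagln was 4.91-fold higher. Of 6 meningeal fibroblast genes 5 rose, among them the proteoglycan Dcn, 4.15-fold. Their part in the vessel wall values was not tested.

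**Figure D5:**
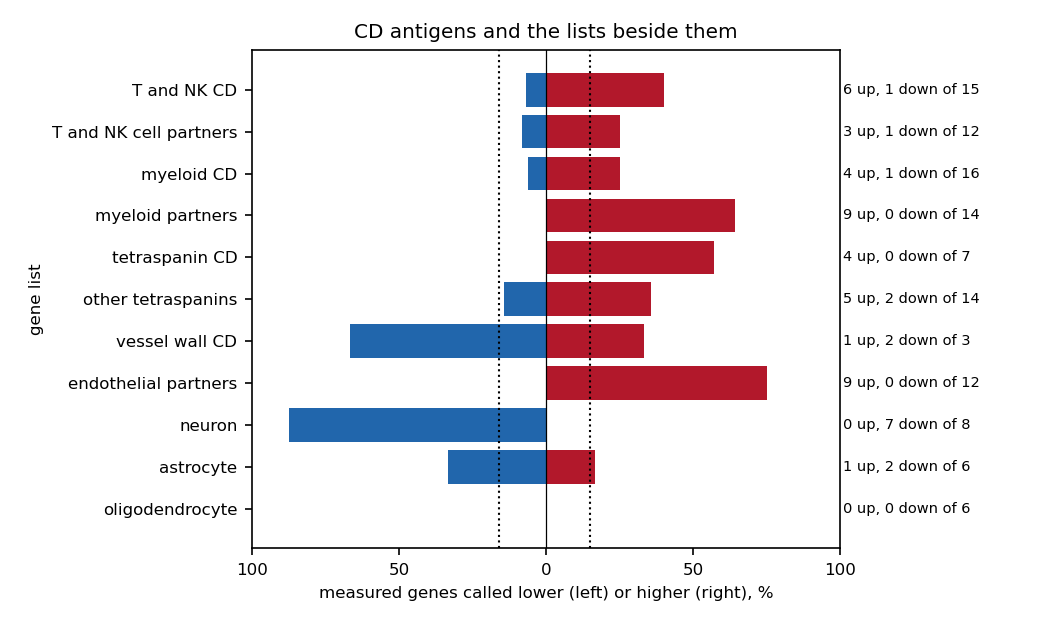
For each list, the share of measured genes called higher (red, to the right) or lower (blue, to the left) in tMCAO than in sham cortex is plotted in percent; dotted lines mark the background of 15.0% higher and 16.0% lower over all features. Of the 3 CD antigens of vessel walls 1 rose (Cd93) and 2 fell (Cd34 and Cd248), and of 12 endothelial genes without a CD symbol 9 rose.

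Of the 3 complement regulators, Cd55 alone was called. Cd55, decay-accelerating factor, which takes apart the C3 convertases on host cells, read -0.34, -0.15, 0.00 and -0.23 in sham and 1.03, 0.67, 1.21 and 0.95 in tMCAO replicates 1 to 4. Replicate 4 was not the lowest tMCAO animal here, and the groups were well separated. The rise was 2.21-fold (log2 difference 1.15 ± 0.13, adjusted p = 0.00209, 1.65- to 2.99-fold within rounding). The brighter Cd55 probe alone gave a 3.57-fold rise (log2 difference 1.84 ± 0.17), with Cy5 of 0.1 to 0.12 in sham and 0.38 to 0.71 in tMCAO animals, and the dimmer probe a log2 difference of 0.46 ± 0.12. Cd59 (Cd59b in RefSeq), which blocks the membrane attack complex, read 0.02, -0.03, -0.13 and -0.13 in sham and -0.39, -0.49, -0.21 and -0.07 in tMCAO replicates 1 to 4 and was not called (log2 difference -0.22 ± 0.11, adjusted p = 0.141). Its tMCAO replicate 4 lay among the sham animals. Cd46, a cofactor of C3b cleavage that in rodents is found mainly in testis, had Cy5 signals of 0.03 to 0.04 on all arrays and was not called (log2 difference 0.15 ± 0.24, adjusted p = 0.667). Its log2 ratios were 0.00, 0.42, -0.42 and 0.58 in sham and 0.58, 0.58, 0.00 and 0.00 in tMCAO replicates 1 to 4.

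The ligands of myeloid inhibitory receptors differed in direction. Cd200, a membrane glycoprotein of neurons and endothelium that binds Cd200r1, read -0.04, 0.12, 0.08 and 0.14 in sham and -0.46, -0.26, -0.54 and -0.19 in tMCAO replicates 1 to 4. All tMCAO animals lay below all sham animals, and the fall was 1.36-fold (log2 difference -0.44 ± 0.10, adjusted p = 0.0133). Its receptor gene Cd200r1 was not called (log2 difference -0.19 ± 0.09, adjusted p = 0.117). From the Cy5 signal alone the Cd200 call was lost. Cd47, the ligand of Sirpa on phagocytes, read -0.14, -0.09, -0.21 and -0.14 in sham and 0.93, -0.05, 0.20 and 0.73 in tMCAO replicates 1 to 4. The tMCAO animals spread widely, replicate 2 lay just above the sham range and replicate 4 well above it, and the difference was not called (log2 difference 0.60 ± 0.20, adjusted p = 0.0522). It was called in 6 of 21 alternatives. Sirpa itself lay at -0.20 ± 0.09 (adjusted p = 0.133).

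Of the other 6 members, Cd164 rose and Cd99l2 fell. Cd164, endolyn, a sialomucin of endosomes, read 0.00, 0.12, -0.05 and -0.04 in sham and 0.79, 0.47, 0.55 and 0.26 in tMCAO replicates 1 to 4. The groups did not overlap, and the rise was 1.42-fold (log2 difference 0.51 ± 0.12, adjusted p = 0.0139). Of 21 alternatives at the same threshold, quantile normalization alone ended the Cd164 call. Cd99l2, a relative of the adhesion molecule Cd99, read -0.01, 0.11, -0.06 and 0.01 in sham and -0.69, -0.83, -0.76 and -0.10 in tMCAO replicates 1 to 4. Replicate 4 lay just below the sham range and the other 3 far below it. The fall was 1.52-fold (log2 difference -0.61 ± 0.16, adjusted p = 0.0212), and its call was lost without sham replicate 1, 2 or 4, without tMCAO replicate 1, 2 or 3 and under quantile normalization.

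Cd24, a small sialoglycoprotein of immature neurons and leukocytes, read 0.23, 0.29, 0.20 and 0.06 in sham and 0.18, 0.05, 0.08 and 0.28 in tMCAO replicates 1 to 4 (log2 difference -0.04 ± 0.09, adjusted p = 0.715). Cd320, the receptor for transcobalamin-bound vitamin B12, read 0.09, 0.00, 0.00 and 0.00 in sham and -0.09, 0.26, 0.00 and -0.07 in tMCAO replicates 1 to 4 (log2 difference 0.00 ± 0.10, adjusted p = 0.984). For both genes the groups overlapped. The NAD-consuming enzyme Cd38 (-0.21 ± 0.17) and the Cd164 relative Cd164l2 (-0.02 ± 0.16) were not called either (adjusted p = 0.343 and 0.918).

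Replicate 4 of tMCAO lay nearest to the sham animals in most members that rose and in 3 of the 6 that fell. It was the lowest tMCAO animal in 13 of the 17 members that rose, and in 75.9% of the 2685 features that rose. Among all 2867 features that fell it was the nearest to sham in 75.2%, while for Cd7, Cd34 and Cd83 another replicate was nearer. The median log2 ratio of the 54 members was 0.45, 0.41, 0.19 and 0.11 on tMCAO arrays 1 to 4 and 0.00 to 0.02 on the sham arrays. Without replicate 4, 25 members were higher and 7 lower, and all 23 members called with every array were kept. Calls over all features increased as well, from 2685 to 3907 higher and from 2867 to 4317 lower. The p-values per array in the authors' deposited table gave 31, 28, 27 and 13 of 65 CD antigen probes with a p below 0.01 on tMCAO arrays 1 to 4 (47.7%, 43.1%, 41.5% and 20%, against 35.5%, 33.8%, 29.1% and 11.8% of all probes). On the sham arrays 1 or 2 of the 65 had such a p.

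Of the lists for other cells of the tissue, neuronal genes, the check of the tissue, were present on all arrays: their summed Cy5 signal was 33.3 to 37.7 on the sham and 16.6 to 24.9 on the tMCAO arrays, and 7 of 8 fell, with Uchl1, Syp and Nefm at log2 differences of -1.46, -1.34 and -1.11. Of 6 astrocyte genes 1 rose (Gfap, 2.68-fold) and 2 fell (Aldh1l1 and Slc1a2), at a summed signal of 15.4 to 24.2 and 23.8 to 28.3. The mean Cy5 signal of Gfap on the tMCAO arrays was 21.9, and its values on single arrays were not compared with the ceiling. No oligodendrocyte (6 measured), neutrophil (4), red blood cell (3) or platelet gene (4) was called. The summed signal of neutrophil genes was 0.445 to 1.86 on the sham and 0.515 to 6.14 on the tMCAO arrays, with S100a9 at a log2 difference of 1.80 ± 0.89 (adjusted p = 0.152). The log2 ratios of S100a9 were 1.61, -0.76, -0.31 and -0.73 in sham and 3.15, 2.78, 1.91 and -0.81 in tMCAO replicates 1 to 4. The 4 neutrophil genes had log2 differences of -0.13 to 1.80. The 4 platelet genes lay at -0.10 to 1.13, the highest being Pf4 (limma adjusted p = 0.0513). No measured gene of these lists had a signal of 0, and their part in the CD antigen values was not tested.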

How the data were processed

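Total RNA of rat cortex (DNase for 30 min, 100 ng amplified in 2 rounds, per the labels' protocols) was hybridised to 2-colour arrays. Agilent Feature Extraction 8.5.1.1 was used, per the submitters' processing notes. For every array, the deposited table lists the normalized intensity of Cy5 and of Cy3 with a p-value that compares them; the authors' scaling and error model are not given in the sources used here. The deposited series matrix holds the log10 ratio of the same intensities, equal within 0.00498. Array medians of Cy5 were 0.22 to 0.23, and 27.9% of Cy5 values lay below 0.1. The number of arrays limits the precision, and no background flags were used.

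The intensities of 23376 complete probes were turned into log2(Cy5/Cy3) (233 with a missing value were left out, 1 of them a CD antigen probe) and averaged per symbol. Symbols were updated with RefSeq (GRCr8), except that CD antigens kept the symbol of the table; promoter sequences are RefSeq's. A mean per group was fitted to all 17928 features with limma 3.58.1 (lmFit, eBayes, 2-sided) in R 4.3.3. Same-numbered arrays were not paired (see the closing section). The fit was tested on simulated data. Values on all arrays are given for up to 4 called members of a group by absolute difference and up to 2 others by mean signal, and additionally for Cd83; up to 3 genes are named per partner or marker list, and others were named after their values were seen. The members and lists were chosen with earlier results of these data known. Of the 54 members, 1 is counted in the totals and is not reported on its own here.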

Additional observations from a re-analysis of the deposited data

Results flagged for a closer look

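Of 106 groups of 4 arrays checked (both groups of the 54 CD antigens, where the values differed), 13 held 1 array far from the other 3, by the gap to its nearest neighbour over the range of the group. Chance flags about 1 in 20 groups of unrounded, normally distributed values. A group with 3 equal ratios is always flagged, so that rate does not hold for these rounded data. The values are log2 ratios to the pool. In tMCAO animals, Cd2 was 1.83 on replicate 1 against 0.58 to 0.75 on the others, and on replicate 4 Cd247 was 0 against 0.45 to 0.50 and Cd200r2 0.58 against 0 on the others. In sham animals, replicate 1 stood apart for Cd34 (-0.30), Cd63 (-0.0748, against 0.08 to 0.10) and Cd320 (0.0875), and replicate 2 for Cd79b (0.0498), Cd7 (0.12) and Cd302 (0.23). Replicate 3 stood apart for Cd3e (-0.26) and Cd1d1 (-0.19), and replicate 4 for Cd96 (0.42) and Cd151 (0.20, against -0.18 to -0.14). For Cd79b, Cd3e, Cd96, Cd1d1 and Cd320 in sham and Cd200r2 in tMCAO animals the other 3 ratios were exactly 0, because both channels had the same rounded value.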

How the results depend on the processing

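Against 17 CD antigens higher and 6 lower, 15 and 4 were called with the replicate block, and 2029 and 1953 of all features against 2685 and 2867. Same-numbered arrays did not deviate together (correlations of 0.04, -0.04, 0.02 and -0.05 for replicates 1 to 4). Differently numbered arrays had correlations of -0.08 to 0.14. With 4 arrays per group these values cannot show whether the animals were matched. At an adjusted p under 0.01 (limma), 9 CD antigens were higher and 0 lower, and 1083 and 867 features. An unadjusted limma p under 0.05 was found for 28 of the 54 CD antigens and for 7883 of all 17928 features. Quantile normalization gave 12 higher and 2 lower CD antigens and ended 10 of the 23 calls (Cd164, Cd247, Cd248, Cd27, Cd34, Cd68, Cd7, Cd8a, Cd93 and Cd99l2), and it gave 1528 higher and 1382 lower features in all. Array weights gave 26 higher CD antigens, and 4062 and 4637 features. Leaving out 1 array gave 12 to 25 higher and 2 to 7 lower CD antigens, and 1811 to 3907 higher and 1701 to 4317 lower features. The low ends are 12 without sham replicate 1 or 2 and 2 without sham replicate 2 or tMCAO replicate 1 or 3; without sham replicate 1, 3 or 4 there were 3 lower. The high ends came without tMCAO replicate 4. Without the dim features 32 CD antigens were tested, of which 12 were higher and 6 lower, and 2542 and 2935 features in all. With the pool alone as the control 18 CD antigens were higher and 4 lower, and 2498 and 2656 features. With every probe on its own, 24 CD antigen probes were higher and 6 lower, and 3380 and 3540 of all probes. Called in each alternative in which they were tested were Cd53, Cd151, Cd63, Cd9, Cd48, Cd300a, Cd1d1 and Cd55. Adding 0.05 to both channels, chosen after seeing the data, gave 20 higher and 6 lower CD antigens, and 2842 and 3034 features in all.

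The only called member to change sign was Cd247, at -0.13 from the Cy5 signal alone. Among members near 0, Cd79b turned to -0.40 from the Cy5 signal alone (called; limma adjusted p = 0.0277, range over its alternatives 0.0277 to 0.987) and to -0.0169 with quantile normalization, and was -0.0170 (without tMCAO replicate 2) to 0.0553 with 1 array left out. From the Cy5 signal alone Cd3d was -0.28 and Cd80 -0.12. Cd46 was -0.14 with quantile normalization and -0.0409 (without sham replicate 3) to 0.29 with 1 array left out, and Cd24 was 0.15 with the pool alone. Cd320 was -0.0185 with quantile normalization and -0.0757 (without tMCAO replicate 2) to 0.0411 with 1 array left out. Cd81 was -0.0390 with array weights and -0.0510 (without tMCAO replicate 1) to 0.0770 with 1 array left out. The cause was not tested. Signals near the rounding step limit the T and NK values, and the ceiling limits Cd9 and Cd63. A pool signal lower on the tMCAO arrays also limits the 6 T and NK rises.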
